A study of Mus musculus with 6 samples.

Results

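The interferon response genes described here are 29 genes that interferons are known to induce, listed by symbol and looked up among the 19057 genes of the deposited table. The rule that picks them uses no measured value, but the list was drawn up with earlier results of these data known. Each gene was read from its brightest probe over the 6 arrays. A probe was found for 28 of the 29 genes, and Ifi44 has no probe under that symbol among those annotated here. Of these 28 genes, 22 lay above the intensity filter of 58.7 and were tested among 11167 genes. The other 6, Ifit1, Oasl1, Oas1a, Mx1, Ifih1 and Xaf1, lay below it and were left out of the test. None of the 22 tested genes passed limma's test (adjusted p under 0.05 over all 11167 genes) in any comparison, so their differences are given below with their errors.

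RNA from whole mouse heart was hybridised to 6 Illumina bead arrays, 1 intensity per probe and array. The mice were of the FvB background and 8 weeks old by the labels, while the text of the series gives an age in years. Hearts were taken 3 weeks after TAC, a constriction of the aorta that makes the heart pump against raised pressure, or after sham surgery. The transgenic mice carried JMJD2A, a histone demethylase encoded by Kdm4a, as a heart-specific transgene; the promoter that drives it is not named in the labels. The groups were transgenic TAC (2 arrays), transgenic sham (1 array), wild-type TAC (2 arrays) and wild-type sham (1 array). Whether an array holds RNA of 1 animal or of a pool is not stated, and p-values therefore reflect the spread of these arrays, which may be technical in part.

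Interferons are secreted proteins that cells release on sensing viral or misplaced nucleic acid. They bind receptors on the same and neighbouring cells, and Janus kinases there phosphorylate transcription factors such as STAT2. A complex that holds STAT2 and IRF9 binds the interferon-stimulated response element (ISRE) in target promoters, while interferon gamma acts mainly through the gamma-activated sequence (GAS). The targets are antiviral proteins, sensors, guanylate-binding proteins and the machinery that shows peptides on major histocompatibility complex class I. In the heart, this programme is known from viral myocarditis and from macrophages after infarction.

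Promoter windows from 250 bases before to 50 bases after the gene's start were available from RefSeq (GRCm38.p6) for 23 of the 29 genes. There were 27 windows, because 4 genes had several, and a motif counted for a gene if any of its windows held it. The ISRE core was searched as GAAANNGAAA or, on the other strand, TTTCNNTTTC, and it was present for 12 of the 23 genes (52.2%) and for 3.99% of 27025 genes. The GAS was searched as TTCNNNGAA, which reads the same on both strands, and it was present for 6 of the 23 genes (26.1%) and for 9.55% of the 27025 genes. Both motifs were found for 3 genes and neither for 8, and in 2 places an ISRE match overlapped a GAS match. The excerpts below belong to the 4 genes with the smallest p between genotypes (B2m, Gbp3, Gbp2 and Ifit2), to Isg15 with its run of 3 matches, and to Rsad2, which had the largest difference between the TAC responses. Capitals mark the ISRE matches, or for Ifit2 the GAS match, and each excerpt is written 5′ to 3′ along its gene's strand. They lie at chr2:122147508-122147597 (plus) for B2m, chr3:142559965-142560043 (plus) for Gbp3, chr3:142620564-142620653 (plus) for Gbp2, chr19:34550444-34550502 (plus) for Ifit2, chr4:156200835-156200924 (minus) for Isg15 and chr12:26456523-26456612 (minus) for Rsad2.
B2m: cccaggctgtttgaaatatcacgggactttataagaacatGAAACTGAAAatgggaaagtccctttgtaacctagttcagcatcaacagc
Gbp3: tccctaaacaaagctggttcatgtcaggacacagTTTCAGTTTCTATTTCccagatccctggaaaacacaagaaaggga
Gbp2: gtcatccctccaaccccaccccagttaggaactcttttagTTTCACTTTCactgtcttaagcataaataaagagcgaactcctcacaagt
Ifit2: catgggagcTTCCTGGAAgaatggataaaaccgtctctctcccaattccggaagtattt
Isg15: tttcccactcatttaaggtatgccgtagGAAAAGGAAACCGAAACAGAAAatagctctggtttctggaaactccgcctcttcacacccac
Rsad2: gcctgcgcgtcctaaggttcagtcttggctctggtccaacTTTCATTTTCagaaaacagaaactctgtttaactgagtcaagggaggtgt

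In B2m the match runs from position -139 to -130 relative to the gene's start, in Gbp2 from -59 to -50 and in Rsad2 from -120 to -111. The 2 overlapping matches of Gbp3 span -45 to -30, and the 3 overlapping matches of Isg15 span -78 to -57. A match is a description of the letters in the window and not a measured binding site. Lack of a match means only that the exact letters searched were absent from the window.

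**Figure D1:**
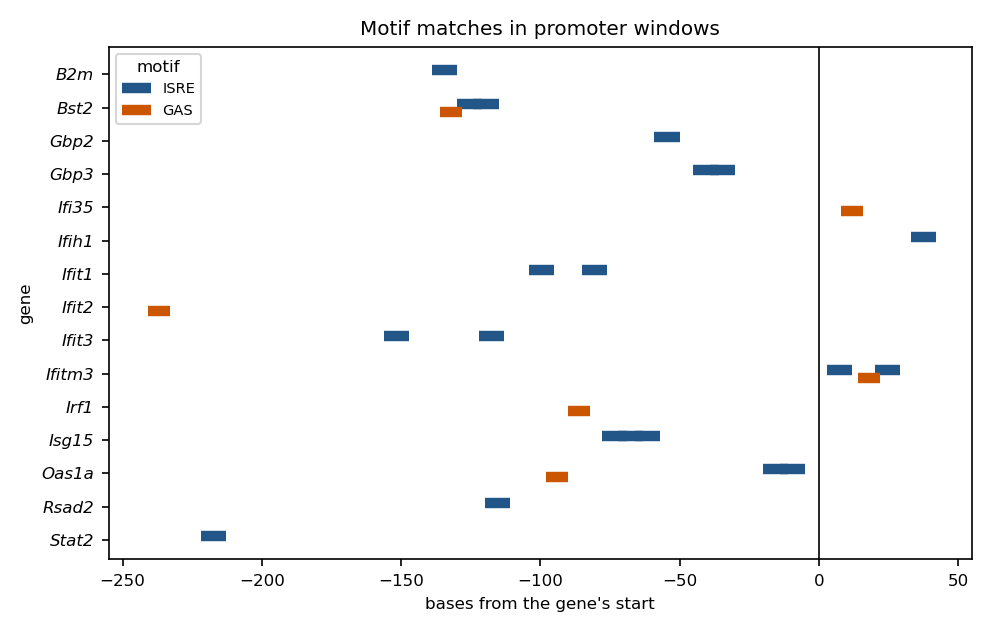
Matches to the ISRE core (blue) and to the GAS (orange) by gene, on a horizontal axis of bases from the gene's start. Matches of 15 genes are drawn; those of B2m, Gbp2, Gbp3, Isg15 and Rsad2 all lie before the start, none of them farther off than position -139.

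Kdm4a, the gene of the transgene, had log2 intensities of 6.75 and 6.45 in transgenic TAC, 6.66 in transgenic sham, 6.51 and 6.64 in wild-type TAC and 6.70 in wild-type sham. A second probe of nearly the same brightness (intensity 96.4, against 98.1) was at 6.86 and 6.32 in transgenic TAC, 7.03 in transgenic sham, 6.44 and 6.40 in wild-type TAC and 6.49 in wild-type sham. By that probe transgenic sham and transgenic TAC 1 were above all wild-type arrays, while transgenic TAC 2 was the lowest array of all, which goes against its label. No source used here places either probe relative to the transgene, so this gene settles the genotype labels for none of the arrays, and the main genotype values over both surgeries are also given without transgenic TAC 2. Heart muscle genes were bright on all 6 arrays, and the 7 cardiomyocyte markers tested summed to intensities between 95193 and 106467. Xist, which marks female cells, was low in transgenic sham (log2 5.41) and wild-type TAC 2 (5.38) and between 10.36 and 11.03 on the other arrays, and the labels give no sex. Array pairs correlated at r = 0.984 to 0.994 over all probes. The SD of the log2 difference between arrays of 1 group was 0.306 for the transgenic TAC pair and 0.200 for the wild-type TAC pair.

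Over both genotypes, 21 of the 22 interferon response genes were higher in TAC than in sham hearts, but none passed the test. Their median log2 difference was 0.21, against -0.01 for all 11167 genes, of which 48.6% were higher. The largest differences were those of B2m, Rsad2, Isg15 and Ifitm3, between 1.28-fold and 1.33-fold, and Mx2 was the 1 gene that was lower (log2 -0.03). Of all genes tested, 0.00895% passed limma's test (1 gene), and the smallest adjusted p among the interferon response genes was 0.378. At an unadjusted p under 0.05 there were 4 of the 22 genes, B2m, Ifitm3, Isg15 and Dhx58, against 9.26% of all genes. All 4 TAC arrays lay above both sham arrays for 6 of the 22 genes, Ifit3, Isg15, Stat2, Dhx58, Parp14 and Ifitm3, against 8.39% of all genes. All 4 lay below both for none of the 22, against 8.16% of all genes. With 1 array left out, between 18 (without wild-type sham) and 22 (without transgenic TAC 1) genes were higher. Leaving out wild-type sham compares TAC with sham in transgenic hearts only, and leaving out transgenic sham does so in wild-type hearts only. Such fits repeat the differences within each genotype given below and are no separate check. With the pair of low-Xist arrays removed, wild-type TAC 1 is set against wild-type sham. In that fit 16 of 22 were higher and the median was 0.11.

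**Figure D2:**
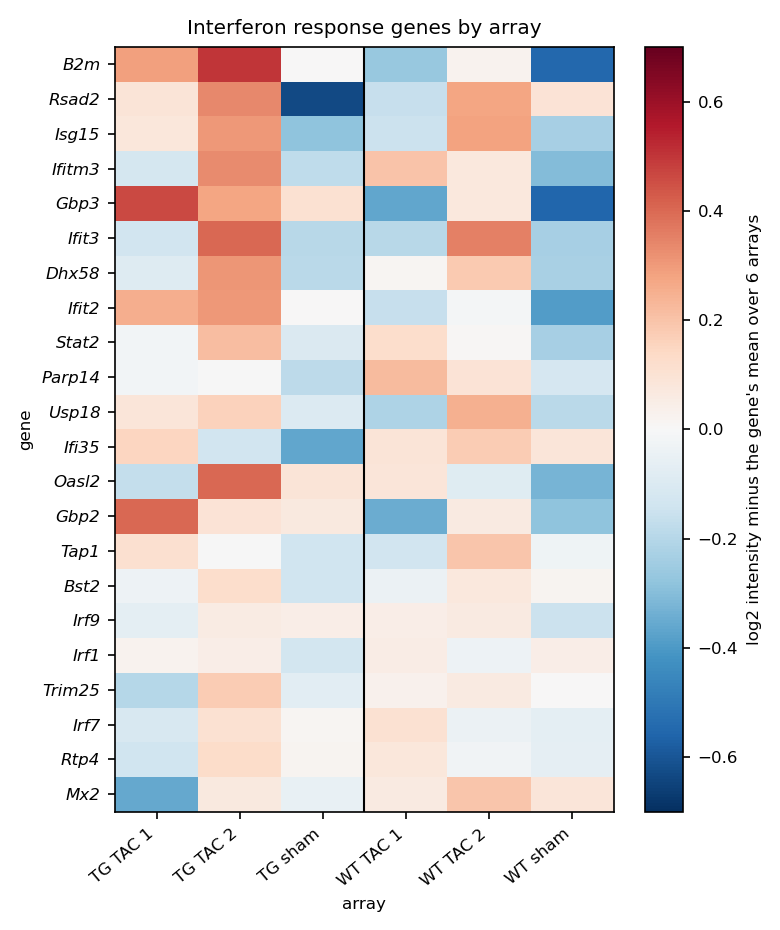
Log2 intensity of the 22 tested genes on each array, minus the gene's mean over the 6 arrays (red higher, blue lower), with genes ordered by their TAC minus sham difference. Transgenic TAC 2 was the highest array for 13 of the 22 genes, and neither sham array was the highest for any.

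The transcription factors that carry the interferon signal had small TAC differences. Stat2, which encodes a subunit of the ISRE-binding complex, was at log2 7.05 and 7.29 in transgenic TAC, 6.97 in transgenic sham, 7.20 and 7.08 in wild-type TAC and 6.84 in wild-type sham. Every TAC array was above both sham arrays, with a log2 difference of 0.25 ± 0.14 (SE, 4 against 2 arrays, adjusted p = 0.636 in limma). Irf9, which gives that complex its DNA contact, was at 8.35 and 8.47 in transgenic TAC, 8.46 in transgenic sham, 8.46 and 8.48 in wild-type TAC and 8.26 in wild-type sham, so TAC and sham arrays overlapped. Irf7, the factor that amplifies interferon alpha transcription, lay at 5.87 and 6.09 in transgenic TAC, 6.00 in transgenic sham, 6.09 and 5.94 in wild-type TAC and 5.92 in wild-type sham, close to the filter on all arrays. Its log2 difference was 0.04 ± 0.10 (adjusted p = 0.929), and that of Irf9 was 0.08 ± 0.15 (adjusted p = 0.910). Both turned negative without the wild-type sham array (-0.02 and -0.05), a fit that compares TAC with sham in transgenic hearts only. A second Irf9 probe (intensity 153) gave a larger difference of 0.21, with 0.26 in wild-type and 0.16 in transgenic hearts. Irf1, induced mainly by interferon gamma, stayed between 10.99 and 11.17 on all arrays.

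The tested antiviral effectors, all but Mx2, averaged higher in TAC than in sham arrays without passing the test. Isg15, a ubiquitin-like protein attached to other proteins, was at log2 7.17 and 7.39 in transgenic TAC, 6.81 in transgenic sham, 6.94 and 7.37 in wild-type TAC and 6.85 in wild-type sham. Both sham arrays were below all TAC arrays, the log2 difference was 0.39 ± 0.17 and the adjusted p 0.519. Ifit3, a member of the family that binds foreign RNA, was at 8.12 and 8.65 in transgenic TAC, 8.05 in transgenic sham, 8.06 and 8.61 in wild-type TAC and 8.02 in wild-type sham. Only the second array of each TAC pair stood apart. The first lay at or just above the sham level, and the log2 difference was 0.32 ± 0.21 (adjusted p = 0.689). A second, dimmer Ifit3 probe (intensity 73.1) gave 0.04, and its highest array was transgenic sham (6.31). Ifit2, of the same family, had a difference of 0.29 ± 0.15 (adjusted p = 0.588) by its brightest probe and 0.07 by a second one. Ifitm3, which blocks virus entry at membranes, was at 12.37 and 12.83 in transgenic TAC, 12.32 in transgenic sham, 12.70 and 12.58 in wild-type TAC and 12.20 in wild-type sham. The groups did not overlap, although transgenic TAC 1 was only just above transgenic sham, and the difference was 0.36 ± 0.14 (adjusted p = 0.493). Bst2, or tetherin, which holds budding virus at the cell surface, overlapped between TAC and sham, with 6.39 and 6.56 in transgenic TAC, 6.29 in transgenic sham, 6.39 and 6.51 in wild-type TAC and 6.45 in wild-type sham. Its difference was 0.09 ± 0.12 (adjusted p = 0.858), and it was -0.0018 without transgenic sham, that is within wild-type hearts. Rsad2, or viperin, is described with the TAC responses by genotype.

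Dhx58, a helicase of the RIG-I family of RNA sensors, was at log2 6.35 and 6.75 in transgenic TAC, 6.25 in transgenic sham, 6.45 and 6.62 in wild-type TAC and 6.21 in wild-type sham. All TAC arrays were above both sham arrays, with a difference of 0.31 ± 0.14 (adjusted p = 0.535), and a second probe gave 0.28. Dimmer Dhx58 probes (intensities of 60.2 and 43.5) gave 0.13 and -0.06. B2m, the light chain of class I molecules, was among the brightest of these genes, at 12.97 and 13.18 in transgenic TAC, 12.68 in transgenic sham, 12.41 and 12.70 in wild-type TAC and 12.13 in wild-type sham. Within each genotype its TAC arrays were above the sham array, but transgenic sham was above 1 wild-type TAC array. The log2 difference over both genotypes was 0.41 ± 0.12 (1.33-fold, adjusted p = 0.378), and a second probe also gave 0.41. The remaining tested genes, Parp14, Usp18, Ifi35, Gbp2, Gbp3, Oasl2, Tap1, Trim25, Rtp4, Irf1 and Mx2, had log2 differences between -0.03 and 0.34. Of those not described further on, Usp18, which removes Isg15 from proteins, ranged from 7.40 to 7.86 over the 6 arrays. Tap1, which carries peptides to class I molecules, ranged from 6.40 to 6.74, and Trim25, a ubiquitin ligase that acts on RIG-I, from 8.93 to 9.31. Rtp4, a chaperone of receptor transport, ranged from 6.15 to 6.42. For Usp18, Tap1, Trim25 and Rtp4 alike, TAC and sham arrays overlapped.

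**Figure D3:**
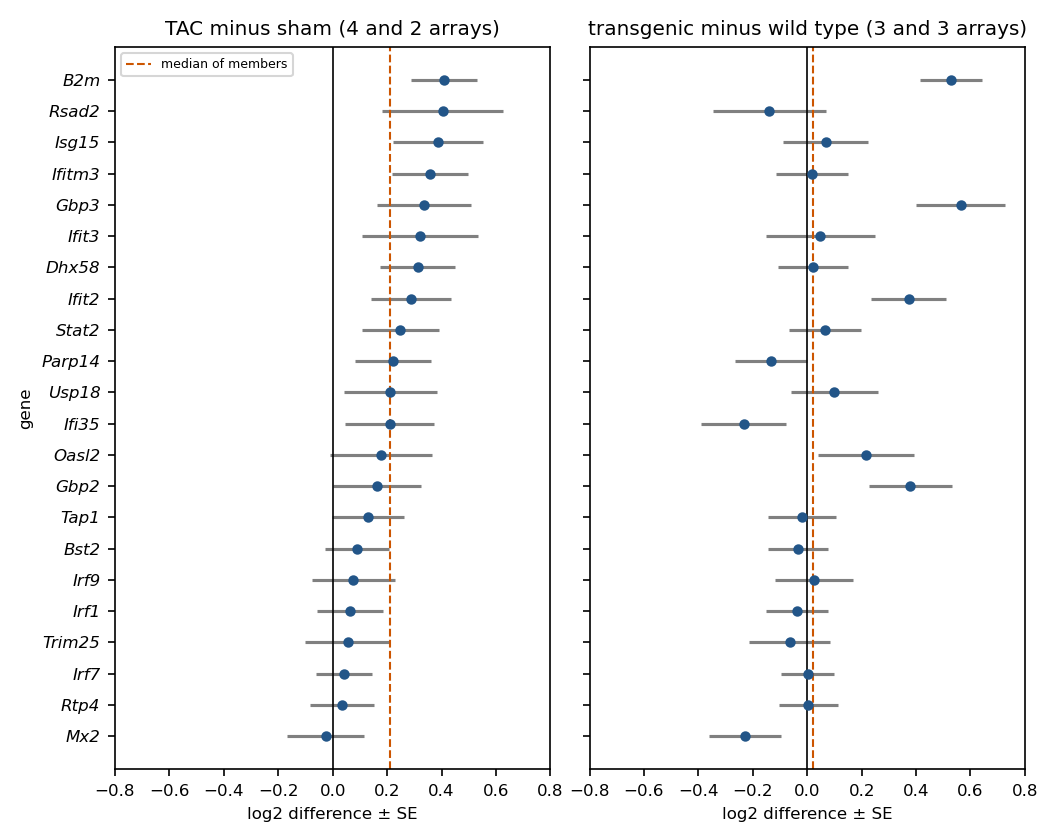
Log2 difference ± SE of the 22 tested genes for TAC minus sham over both genotypes (left) and transgenic minus wild type over both surgeries (right), in the same gene order; the dashed line is the median of the 22. On the left 21 points lie above 0, around a median of 0.21; on the right the median is 0.02 and B2m, Gbp3, Gbp2 and Ifit2 lie farthest to the right.

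The 6 genes below the filter stayed near background on every array. Ifit1, the founding member of its family, was at log2 5.45 and 5.47 in transgenic TAC, 5.53 in transgenic sham, 5.41 and 5.57 in wild-type TAC and 5.69 in wild-type sham. Both sham arrays lay above 3 of the 4 TAC arrays, and the log2 difference was -0.14 ± 0.08. The other 5, the synthetase Oas1a and its relative Oasl1, the antiviral GTPase Mx1, the RNA sensor Ifih1 and the apoptosis factor Xaf1, had differences between -0.05 and 0.09. Most inbred mouse strains carry a defective Mx1 allele. At this brightness a change in RNA gives a smaller change in log2 intensity, so no change can be read from these probes in either direction.

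Markers of several other cell types, though not of all, were on average also brighter after TAC, and their part in the interferon result was not tested. Of 3 pan-leukocyte markers 3 were higher in TAC hearts (median log2 difference 0.44), with summed intensities of 2394 and 3489 in transgenic TAC, 2339 in transgenic sham, 2657 and 2958 in wild-type TAC and 1994 in wild-type sham. Ptprc, the defining leukocyte gene, lay below the filter. Of 11 macrophage markers 9 were higher (median 0.16), with sums of 6891 and 5662 in transgenic TAC, 5594 in transgenic sham, 5376 and 5580 in wild-type TAC and 3963 in wild-type sham. All 7 endothelial markers (median 0.21), 6 of 7 fibroblast markers (median 0.26) and all 5 lymphocyte markers tested (median 0.12) were higher too, although the endothelial sum of transgenic TAC 1 (12097) was below those of transgenic sham (13271) and wild-type sham (13934). The lymphocyte sum of wild-type TAC 1 (304) was also below that of wild-type sham (343). Within wild-type hearts 3 lymphocyte markers were higher after TAC and 2 lower. Neutrophil markers had no such shift: 2 of 3 were higher (median 0.01), with sums of 191 and 201 in transgenic TAC, 180 in transgenic sham, 225 and 350 in wild-type TAC and 311 in wild-type sham. All 3 red blood cell markers were lower (median -0.07), and none of the markers in these lists passed the test. Siglech, which defines the plasmacytoid dendritic cells known for interferon release, was lower in TAC (-0.26 ± 0.11, adjusted p = 0.504), and Cox6a2, the other marker of its list that was tested and a heart muscle gene as well, had 0.03 ± 0.09. The markers Ccr9, Ly6d and Klk1 lay below the filter. In whole hearts, more cells of a type and more RNA per cell cannot be told apart.

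Between genotypes the median of the interferon response genes was near 0, and a few of them were higher in transgenic hearts without passing the test. Over both surgeries 14 of the 22 were higher and 8 lower in transgenic hearts, with a median log2 difference of 0.02, against -0.01 for all genes, of which 47.6% were higher. Of all genes tested, 0.949% passed (106 genes, 74 higher and 32 lower), and none of the 22 did. The smallest adjusted p among them was 0.0839, for B2m. At an unadjusted p under 0.05 there were 4 of the 22 genes, all higher in transgenic hearts (B2m, Gbp3, Ifit2 and Gbp2), against 11.5% of all genes. The 3 transgenic arrays lay above the 3 wild-type arrays for 3 of the 22 genes, Ifit2, Gbp2 and Gbp3, against 7.59% of all genes, and below them for none, against 8.55%.

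B2m had the values given above, and each transgenic array was above the wild-type arrays of its own surgery. Its log2 difference between genotypes was 0.53 ± 0.11 (1.44-fold, SE, 3 against 3 arrays), and transgenic sham lay just below wild-type TAC 2 by the tested probe. By a second probe of nearly the same brightness the difference was 0.45, and transgenic sham (12.63) lay farther below wild-type TAC 2 (12.83). With 1 array left out the difference by the tested probe ranged from 0.45 to 0.62, with adjusted p between 0.0512 and 0.524 in limma. Gbp3, a guanylate-binding protein that attacks pathogen vacuoles, was at 8.95 and 8.77 in transgenic TAC, 8.60 in transgenic sham, 8.12 and 8.56 in wild-type TAC and 7.93 in wild-type sham. The genotypes did not overlap, though transgenic sham was only just above wild-type TAC 2, and the difference was 0.56 ± 0.16 (1.48-fold, adjusted p = 0.198). A second Gbp3 probe was at 8.61 and 8.41 in transgenic TAC, 8.38 in transgenic sham, 7.71 and 8.11 in wild-type TAC and 7.70 in wild-type sham. It separated the genotypes by 0.63. With array weights in the fit, B2m and Gbp3 passed (adjusted p = 0.0132 and 0.0348), together with 595 genes in all.

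Gbp2, a relative of Gbp3, was at log2 10.75 and 10.44 in transgenic TAC, 10.41 in transgenic sham, 10.00 and 10.40 in wild-type TAC and 10.06 in wild-type sham. The gap between the genotypes was narrow, because wild-type TAC 2 and transgenic sham were nearly equal, and the difference was 0.38 ± 0.15 (adjusted p = 0.390). Its other 2 probes were at background (intensities of 43.5 and 42.6), and the median over its probes gave -0.04. Ifit2 was at 8.59 and 8.64 in transgenic TAC, 8.34 in transgenic sham, 8.18 and 8.32 in wild-type TAC and 7.95 in wild-type sham. The difference was 0.37 ± 0.14 (adjusted p = 0.332), and a second probe gave 0.37 as well. On the other side, Mx2, an antiviral GTPase, was at 6.07 and 6.50 in transgenic TAC, 6.38 in transgenic sham, 6.49 and 6.62 in wild-type TAC and 6.52 in wild-type sham. Transgenic TAC 1 was the low array, and the difference was -0.23 ± 0.13 (adjusted p = 0.583). Isg15, Ifit3, Stat2, Irf7, Irf9, Bst2 and Ifitm3, which carry much of the textbook signature, had differences between -0.03 and 0.07 (adjusted p from 0.908 to 0.996).

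**Figure D4:**
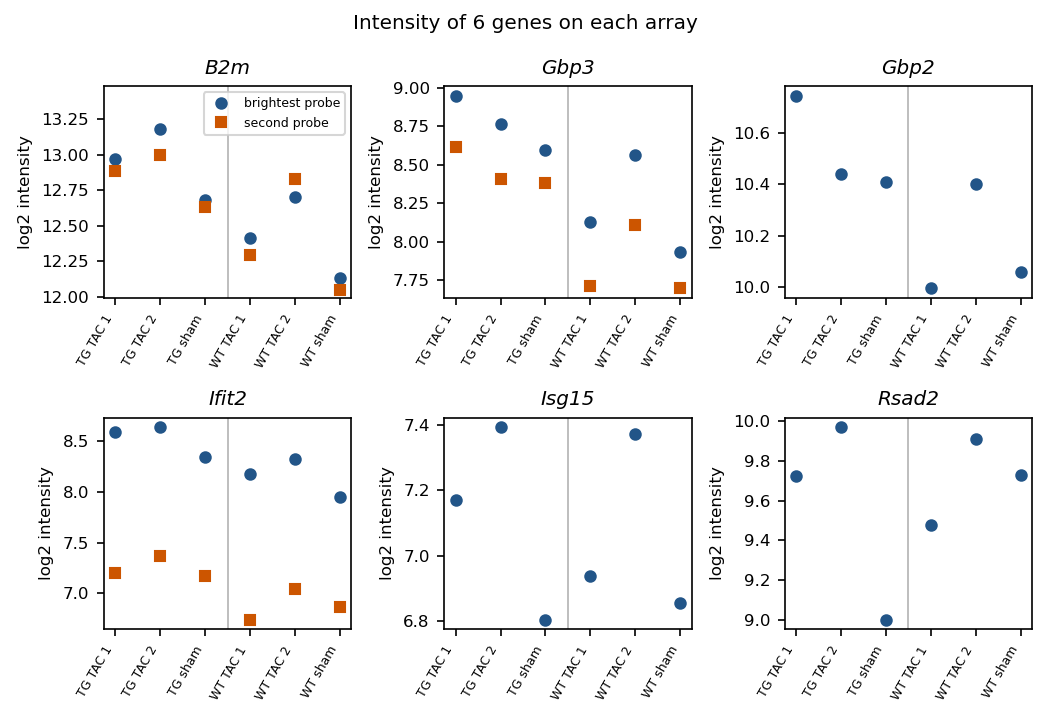
Log2 intensity of B2m, Gbp3, Gbp2, Ifit2, Isg15 and Rsad2 on each of the 6 arrays, with transgenic arrays left and wild-type arrays right of the grey line; circles are the brightest probe and squares a second probe where one has an intensity above 100. The sham array is the lowest of its genotype for B2m, Gbp3, Ifit2 and Isg15, by the brightest probe, and Rsad2 is lowest in transgenic sham.

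The genotype comparison moved with single arrays. Without transgenic TAC 2, 8 of the 22 genes were higher, their median was -0.06 and 473 of all genes passed. In that fit B2m had 0.47 (adjusted p = 0.0512 in limma), Gbp3 0.63 (0.0598), Gbp2 0.46 (0.109) and Ifit2 0.36 (0.160), whereas without transgenic TAC 1 the median was 0.10 and 15 of the 22 were higher. With the low-Xist arrays removed, wild-type TAC 1 alone stands against the pair of transgenic TAC arrays; the median was then 0.06, B2m had 0.66 and Gbp3 0.73. No gene of the 11167 passed in that fit, which has 1 array in an arm and so little reach. Leaving out 1 sham array, whichever of the pair it was, gave 24 genes. The genotype difference then rests on transgenic TAC against wild-type TAC only, the contrast described next. Leaving out wild-type TAC 1 gave 30 and leaving out wild-type TAC 2 gave 32. None of the 22 genes passed in any of these fits. All 11 macrophage markers were also higher in transgenic hearts (median 0.24, none past the test), while 6 of 7 endothelial markers (median -0.23) and all 3 neutrophil markers were lower (median -0.48), with S100a8 at -0.92 ± 0.22 (adjusted p = 0.119). Their part in the differences of B2m and the Gbp genes was not tested.

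After TAC alone, the 1 contrast with 2 arrays a group, 0.206% of all genes passed and none of the 22 did. B2m had the largest difference (0.52 ± 0.16, adjusted p = 0.527), followed by Gbp3 (0.52 ± 0.23, adjusted p = 0.882), Gbp2 (0.39 ± 0.21, adjusted p = 0.981) and Ifit2 (0.36 ± 0.20, adjusted p = 0.999). For these 4 of 22 genes both transgenic TAC arrays were above both wild-type TAC arrays, against 15.5% of all genes. Parp14, a mono-ADP-ribosyltransferase, had both transgenic TAC arrays below both wild-type ones (9.22 and 9.23 against 9.45 and 9.33), against 16.8% of all genes. By a second Parp14 probe (intensity 102) these groups overlapped (6.67 and 6.88 against 6.90 and 6.65), with a difference of -0.0044. Mx2 was at -0.27 ± 0.17 (adjusted p = 0.999), and B2m alone had an unadjusted p under 0.05, as did 5.76% of all genes. The 2 sham arrays allow no test. Between them, transgenic sham minus wild-type sham, the 22 genes had a median of 0.06, from -0.73 for Rsad2 to 0.66 for Gbp3, and none reached a log2 difference of 1, which 1.04% of all genes did. Xist was low in transgenic sham (log2 5.41) and high in wild-type sham (10.50). Genotype and the Xist difference therefore cannot be told apart between these arrays.

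Within each genotype TAC was set against 1 sham array, taken to have the spread of the TAC arrays, and no gene of the 11167 passed either test (0.0% in transgenic and 0.0% in wild-type hearts). At an unadjusted p under 0.05 there was 1 of the 22 genes in transgenic hearts, against 4.86% of all genes. In wild-type hearts there were 0, against 3.56% of all genes. In transgenic hearts 18 of the 22 genes were higher after TAC (median log2 difference 0.20), against 50.9% of all genes. There the sham array was low in Xist (log2 5.41) and both TAC arrays were high (10.36 and 11.03). Within this genotype surgery and the Xist difference therefore cannot be told apart. In wild-type hearts 19 of 22 were higher (median 0.21), against 47.1% of all genes. Both TAC arrays lay above the sham array for 16 genes in transgenic hearts, against 31.1% of all genes, and for 15 in wild-type hearts, against 34.4%. In wild-type hearts the smallest p were those of B2m (0.43 ± 0.19), Ifitm3 (0.44 ± 0.21), Dhx58 (0.32 ± 0.21), Gbp3 (0.41 ± 0.28) and Stat2 (0.30 ± 0.23), each with an adjusted p of 1.0 in limma.

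Rsad2, or viperin, a radical SAM enzyme that blocks virus replication, had the largest TAC difference in transgenic hearts. It was at log2 9.72 and 9.97 in transgenic TAC, 9.002 in transgenic sham, 9.48 and 9.91 in wild-type TAC and 9.73 in wild-type sham. The transgenic sham array was thus the low one, and the other 5 arrays overlapped between the groups. The TAC difference was 0.84 ± 0.27 in transgenic hearts (adjusted p = 0.991) and -0.04 in wild-type hearts. The difference of these responses was 0.88 ± 0.38 (unadjusted p = 0.0480, adjusted p = 1.0), and it ranged from 0.66 to 1.10 with 1 TAC array left out. Each value rests on 1 sham array per genotype, and transgenic sham is also an array of low Xist. In transgenic hearts the next smallest p were those of B2m (0.39 ± 0.19), Isg15 (0.48 ± 0.26), Dhx58 (0.30 ± 0.21) and Ifi35 (0.37 ± 0.26), all with an adjusted p of 0.991.

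No gene of the 11167 passed the test of the difference between the TAC responses (0.0%), and 1 of the 22 (Rsad2) and 1.64% of all genes had an unadjusted p under 0.05. The TAC difference was larger in transgenic hearts for 10 of the 22 genes, against 52.3% of all genes, and smaller for 12, with a median of -0.03. After Rsad2, the smallest p were those of Ifi35, an interferon-induced leucine zipper protein (0.33 ± 0.37), Irf1 (0.20 ± 0.27), Bst2 (0.18 ± 0.25) and Irf9 (-0.26 ± 0.35), each with an adjusted p of 1.0. Ifi35 stood at 8.40 and 8.12 in transgenic TAC, 7.89 in transgenic sham, 8.34 and 8.43 in wild-type TAC and 8.34 in wild-type sham, so transgenic sham was again the lowest array. The test had little reach at this size, since each response uses 1 sham array.

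The replicate TAC arrays of a genotype also differed from each other in these genes. Transgenic TAC 2 was above transgenic TAC 1 for 18 of the 22 genes, with a median log2 difference of 0.22, against 0.06 over all genes, of which 58.7% were higher. The pair differed from 0.57 for Oasl2, a synthetase-like antiviral protein, to -0.31 for Gbp2. Wild-type TAC 2 was above wild-type TAC 1 for 15 of the 22 genes, with a median of 0.12, against 0.02 over all genes, of which 54.8% were higher. This pair differed from 0.55 for Ifit3 to -0.17 for Oasl2. Ifit3 and Isg15 were high on the second array of both pairs, whereas Gbp2 and Gbp3 were higher on the first transgenic and on the second wild-type TAC array. The lowest array was wild-type sham for 9 of the 22 genes and transgenic sham for 7.

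Upstream of these genes, most interferon genes lay below the filter. Of 19 interferon genes 18 had a probe and 5 were tested, and the brightest, Ifnab, was between log2 6.84 and 7.29 on the 6 arrays. All 5 were lower in TAC (median -0.15) and lower in transgenic hearts (median -0.11) without passing the test. Wild-type sham was the bright array, with a summed intensity of 515 against 410 to 448 on the others. After TAC alone 2 of the 5 were higher in transgenic hearts (median -0.0049). Within transgenic hearts 2 of the 5 were higher after TAC (median -0.03). Ifne lay close to the filter, between 5.73 and 5.99. The 2 with the smallest p for TAC were Ifne (-0.15 ± 0.09, adjusted p = 0.663) and Ifnab (-0.20 ± 0.14, adjusted p = 0.711), and between genotypes Ifnz (-0.17 ± 0.10, adjusted p = 0.582) came before Ifne. Ifnb1 and Ifng, which encode interferon beta and gamma, lay below the filter, between 5.50 and 5.79. Among 14 genes of receptors, kinases and STAT signalling 10 were higher in TAC (median 0.03) and 7 in transgenic hearts (median -0.03). Il10rb, a receptor chain used by interferon lambda, had -0.49 ± 0.20 for TAC (adjusted p = 0.506), and Ifngr1, the ligand-binding chain for interferon gamma, had 0.32 ± 0.20 (adjusted p = 0.664). Jak1, a kinase shared by all interferon receptors, was at 7.03 and 7.21 in transgenic TAC, 6.94 in transgenic sham, 7.57 and 7.43 in wild-type TAC and 7.66 in wild-type sham. All 3 transgenic arrays were below the 3 wild-type arrays, as they were for 8.55% of all genes. The log2 difference of Jak1 was -0.50 ± 0.14 (adjusted p = 0.199), while Ifngr2, the second gamma receptor chain, had -0.19 ± 0.14.

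Among 20 genes of nucleic acid sensing 9 were higher in TAC (median -0.01) and 13 in transgenic hearts (median 0.05), and none passed. Zbp1, a sensor of Z-form nucleic acid, had -0.23 ± 0.11 for TAC (adjusted p = 0.569), and Ddx58, which encodes RIG-I, had -0.20 ± 0.11 (adjusted p = 0.630). Between genotypes Samhd1, a nucleotide hydrolase (0.25 ± 0.15, adjusted p = 0.614), and Irf2, a relative of Irf1 (0.21 ± 0.13, adjusted p = 0.623), had the smallest p. Among 39 other interferon-induced genes 30 were higher in TAC (median 0.11) and 16 in transgenic hearts (median -0.02). Lgals3bp, a secreted galectin ligand, was at 8.83 and 8.96 in transgenic TAC, 8.51 in transgenic sham, 9.07 and 8.96 in wild-type TAC and 8.31 in wild-type sham. Its TAC arrays were all above both sham arrays, as they were for 8.39% of all genes, with a difference of 0.54 ± 0.15 (adjusted p = 0.358). Ifitm2, a close relative of Ifitm3, had 0.48 ± 0.15 (adjusted p = 0.411). Whether the probes of these similar Ifitm genes read each other's RNA was not tested. Between genotypes the class I transactivator Nlrc5 had 0.57 ± 0.15 (adjusted p = 0.155) and the chemokine Cxcl9, induced by interferon gamma, 0.51 ± 0.17 (adjusted p = 0.279). With 1 array left out the adjusted p of Nlrc5 in limma ranged from 0.0133 (without transgenic TAC 2) to 0.866.

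Class I antigen presentation held the 1 gene of these lists that passed a test, between genotypes over both surgeries. In that comparison 0.949% of all 11167 genes passed. Psme1, which encodes the alpha subunit of the proteasome activator PA28, was at log2 11.53 and 11.57 in transgenic TAC, 11.87 in transgenic sham, 12.07 and 12.28 in wild-type TAC and 12.43 in wild-type sham. All transgenic arrays were below all wild-type arrays, as they were for 8.55% of all genes. Psme1 was lower by 0.61 on the log2 scale (SE 0.11, 3 against 3 arrays, adjusted p = 0.0405 in limma). It passed without transgenic TAC 2 (adjusted p = 0.0201), but not without transgenic TAC 1 (0.0520), transgenic sham (0.282), wild-type TAC 1 (0.143), wild-type TAC 2 (0.285) or wild-type sham (0.301), and the difference stayed between -0.66 and -0.54. Of the 15 genes of the list 10 were higher in transgenic hearts (median 0.24) and 12 in TAC hearts (median 0.24). H2-D1, a class I heavy chain, had 0.42 ± 0.13 for TAC (adjusted p = 0.411) and Psme1 -0.29 ± 0.11 (adjusted p = 0.495). Psme1 thus lay on the other side from most of its list, and from B2m, in both comparisons.

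**Figure D5:**
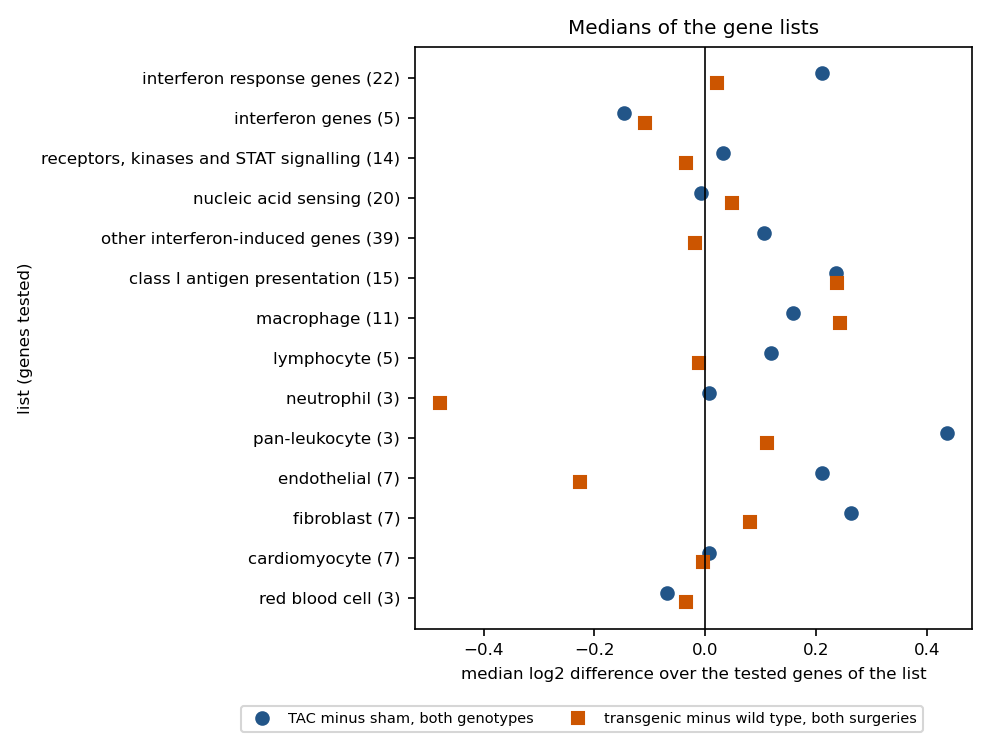
Median log2 difference over the tested genes of each list, for TAC minus sham over both genotypes (circles) and transgenic minus wild type over both surgeries (squares); the number of genes tested stands after each list name. The interferon response genes lie at 0.21 and 0.02, class I antigen presentation at 0.24 in both, and the interferon genes themselves at -0.15 and -0.11.

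The 22 tested genes can also be read by their promoters, as a description. Of the 17 tested genes with a promoter window, the 9 with an ISRE match had a median TAC difference of 0.34 (0.09 to 0.41), and the 8 without one had a median of 0.10 (0.04 to 0.29). All 17 were higher in TAC. Between genotypes the medians were 0.06 with a match and -0.01 without. The 4 genes highest in transgenic hearts included 3 with an ISRE match (B2m, Gbp3 and Gbp2). The other, Ifit2, had the GAS letters in a single window and the exact ISRE core in none of its windows.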

How the data were processed

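The deposited table of the series gives 1 intensity per probe on a linear scale. How the authors corrected background and normalized it, and with which software, is not stated in the labels. Array medians of 56.3 to 56.4 were almost equal, so the deposited normalization was kept. The 12 values below 32 were set to 32, log2 was taken, and background was not subtracted, so folds of dim genes are understated. The platform annotation gave 1 symbol to 34885 of the 45281 probes, several to 18 and none to 10378. Each gene was read from its brightest probe, and genes above the 50th percentile of the annotated probes were tested.

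Tests used limma 3.58.1 (R 4.3.3) with an intensity trend and Benjamini-Hochberg adjustment over the 11167 genes, at a threshold of 0.05. A model of surgery plus genotype (3 residual degrees of freedom) gave the comparisons over both genotypes or surgeries, and a fit of the 4 groups (2 residual) gave the rest. Errors are standard errors. The number of arrays limits the precision. Same-numbered TAC arrays did not deviate together (r = -0.03), so they were not paired.

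The genes and lists were chosen with earlier results of these data known. Genes named with full statistics were, per comparison, those past the threshold and the 5 with the smallest p, plus Irf7, Isg15, Ifit1, Ifit3, Stat2, Irf9, B2m, Bst2 and Ifitm3, and from each pathway list those past the threshold or otherwise the 2 with the smallest p. Other genes were chosen after their values were seen. Alternatives changed the background, scaling, probe choice, filter, variance model, Xist as a covariate, and the arrays included.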

Additional observations from a re-analysis of the deposited data

How the results depend on the processing

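Settings changed how many of all genes passed. None of the 22 interferon response genes passed in any comparison or alternative, except B2m and Gbp3 between genotypes over both surgeries with array weights (2 genes, smallest adjusted p = 0.0132). Between genotypes the median of the 22 and the number higher also moved with single arrays. For TAC against sham over both genotypes, the genes passing numbered 1, against 2 with the 75th percentile filter, 2 with no filter, 126 with array weights, and 0 with Xist as a covariate, with no intensity trend or without both arrays of low Xist. Leaving out 1 array gave 0 to 37. Between genotypes over both surgeries the 106 became 44 (75th percentile), 54 (Xist), 595 (array weights), 51 (median over probes), 0 (without both arrays of low Xist) and 24 to 473 (1 array left out). After TAC the 23 became 11 (75th percentile), 8 (arrays centred), 10 (cyclic loess), 5 (median over probes), 38 (no filter), 8 (no trend), 0 (without both arrays of low Xist) and 0 to 189 (1 array left out). With the TAC number as a replicate block there were 51, and B2m kept the smallest adjusted p of the 22 genes (0.458). Within transgenic hearts 1 gene passed with no filter and 0 to 239 with 1 array left out. Within wild-type hearts 10 passed with Xist, 6 with array weights, 5 with no filter and 0 to 11 with 1 array left out. The difference of the responses gave 5 with Xist and 0 to 1 with 1 array left out. Background subtraction put 200 genes past log2 1 between the sham arrays, against 116. The cause of these shifts was not tested. The median of the 22 genes became 0.35 within transgenic hearts and 0.17 for the difference of the responses with Xist as a covariate. With 1 array left out it ranged from -0.0704 to 0.15 between genotypes after TAC, from -0.13 to 0.0680 for the difference, from 0.13 to 0.25 within transgenic hearts and from 0.20 to 0.23 for TAC over both genotypes. Signs turned for genes near 0. The fits that omit the pair of low-Xist arrays have 1 array in an arm. Without both arrays of low Xist, Bst2 had -0.0607 for TAC, and between genotypes Bst2 had 0.0864, Ifitm3 -0.0950, Irf7 -0.11, Irf9 -0.0547 and Stat2 -0.0273. By the median over probes Gbp2 had -0.0353 between genotypes and -0.0039 after TAC, and Irf1 -0.14 for the difference of the responses. With 1 array left out, the TAC difference ranged from -0.0018 to 0.18 for Bst2, -0.0178 to 0.0994 for Irf7 and -0.0526 to 0.21 for Irf9. The genotype difference then ranged from -0.0974 to 0.0276 for Bst2, -0.11 to 0.20 for Ifit3, -0.0961 to 0.16 for Ifitm3, -0.0488 to 0.0765 for Irf7, -0.0620 to 0.0833 for Irf9 and -0.0721 to 0.17 for Isg15. Outside the 22, Psme1 kept its direction between genotypes but lost its call with the 75th percentile filter (adjusted p = 0.0614), Xist (0.104), the median over probes (0.0593), no trend (0.0726) and without both arrays of low Xist (1.0). Jak1 and Nlrc5 passed with array weights (0.0225 and 0.0107). Ddx58 had 0.0276 for TAC by the median over probes. Genes near background, among them the 6 below the filter, can show only a compressed change.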
